A study of Homo sapiens with 4 samples.

Results

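Polysomal RNA of LN229 cells treated with ATO was compared with polysomal RNA of untreated LN229 cells, gene by gene. LN229 is an established human glioblastoma cell line. ATO, which commonly stands for arsenic trioxide but is not spelled out in the labels, was given at 5 µM for 6 h in DMEM. The growth medium of all cells was DMEM plus FBS (10%) and gentamycin. All cells were lysed in the presence of cycloheximide, and the polysomes were then separated on a sucrose gradient. RNA was measured on an Affymetrix whole-transcript array in 4 samples, with 1 sample in each group: polysomal RNA of untreated and of ATO cells, and total RNA of untreated and of ATO cells. Technical triplicates had been pooled by the submitters, so each gene has 1 value per sample. The comparison takes every probe set with 1 gene symbol, 16127 of the 65528 probe sets in the table, which name 15257 genes. Of these, 7936 belonged to 7745 protein-coding genes, and 3873 of those genes had a mean log2 value over the 4 samples of at least 7.80, the median of coding genes. These 3873 kept genes carry the counts below unless other probe sets are named.

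Polysomes are mRNAs that carry several ribosomes, and cycloheximide holds those ribosomes in place during lysis. An mRNA can be lower in the polysomal fraction because the cell holds less of it or because less of it is loaded with ribosomes. Total RNA is therefore set beside many of the polysomal values, but not all. A polysomal difference printed alone does not tell these cases apart. Arsenic binds protein thiols, and in mammalian cells it is known for the induction of NRF2 targets, metal-response genes, heat shock genes and the ATF4 program, and for phosphorylation of eIF2alpha, which lowers translation initiation. These statements are background and were not measured here.

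No replicate exists in any group, so no difference below has a replicate error, an interval or a test, and precision is limited by the number of arrays. A difference is the log2 value of the ATO polysomal sample minus that of the untreated polysomal sample, and a fold is a fold on the deposited scale, which is not plain log2 intensity because 406 probe sets exceeded 16, the ceiling of a 16-bit scanner. The samples had near-equal medians over all probe sets, from 4.22 to 4.26, so the amount of polysomal RNA as a whole cannot be compared. In bulk RNA, fewer cells with a transcript and less of it per cell cannot be told apart. The table covered chromosomes 1 to 8 and part of chromosome 9, and genes elsewhere were not analysed here. The polysomal and total samples were compared on 10 untranslated nuclear RNAs, among them U1, U4atac, U5 and 7SK. These gave 8 distinct readings because some U1 copies had identical values. Their median stood at -2.51 in untreated polysomal against untreated total RNA and at -2.66 in ATO polysomal against ATO total RNA. Because these RNAs are nuclear, the values cannot tell polysomal RNA from other cytoplasmic RNA. The ATO total sample is grouped by its title, because its source name reads polysomal. The stem and neural lineage markers SOX2 (12.93 untreated and 12.69 ATO polysomal) and NES (10.64 and 10.56) were kept. So were the neuron markers MAP2 (13.01 and 13.23) and GAD1 (9.15 and 9.02). The glial markers GFAP, OLIG2 and S100B were not measured. The blood marker PTPRC (4.21 and 4.19), the epithelial marker EPCAM (3.81 and 3.90) and the endothelial marker TEK (3.90 and 4.51) were far below the filter level.

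Most coding transcripts differed little between the polysomal samples. The median difference over the 3873 genes was -0.02, with the lower and upper quartiles at -0.15 and 0.12 and the extremes at -1.11 and 0.73. At 1.5-fold, the threshold in the series' design text, 10 genes (0.258%) were higher and 34 (0.878%) lower with ATO, and only POP7 passed 2-fold. At a looser threshold, a log2 difference of 0.322, 169 genes (4.36%) were higher and 306 (7.9%) lower. The excess of lower genes depended on the scaling. It was 15 higher and 26 lower after a loess trend on mean level was subtracted, 15 and 29 with the median of the kept genes set to 0, and 8 and 42 with each sample centred on its median over all probe sets. In total RNA 4 of the same genes (0.103%) were higher and 14 (0.361%) lower at 1.5-fold, and 101 (2.61%) and 184 (4.75%) at the looser threshold. The standard deviation across genes was 0.175 against 0.213 in polysomal RNA.

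**Figure D1:**
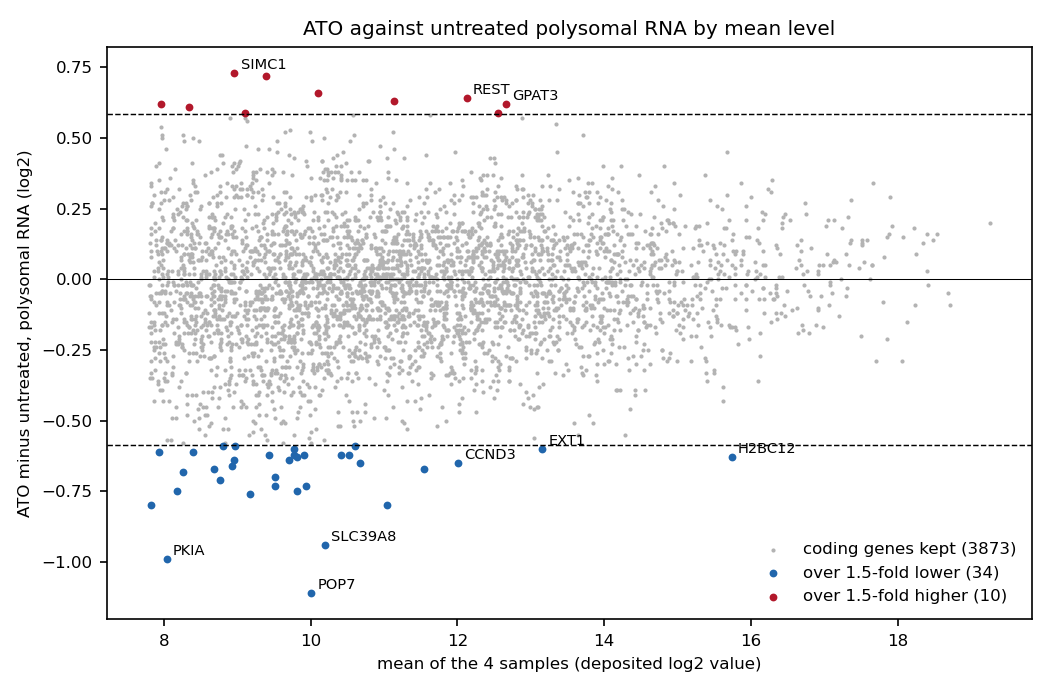
Difference between ATO and untreated polysomal RNA (log2, y axis) against the mean deposited log2 value of the 4 samples (x axis) for 3873 coding genes, 1 dot per gene, with dashed lines at 1.5-fold. The 34 lower genes (blue) reach -1.11 at POP7 and the 10 higher genes (red) reach 0.73 at SIMC1, and most of both sit at mean levels under the middle of the plot.

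POP7, a protein subunit of ribonuclease P and ribonuclease MRP, read 10.70 in untreated polysomal and 9.59 in ATO polysomal RNA, a 2.16-fold difference. Its total RNA read 10.01 untreated and 9.73 with ATO, so the untreated polysomal sample was the highest of the 4. PKIA, an inhibitor of protein kinase A, read 8.85 and 7.86 in polysomal RNA and 7.86 and 7.61 in total RNA. SLC39A8, a zinc and manganese importer that also carries cadmium, read 10.85 and 9.91 in polysomal RNA and 10.11 and 9.92 in total RNA. In all 3 genes the ATO polysomal value lay within 0.25 of the ATO total value, while the untreated polysomal value lay above both total values. The genes were chosen by their polysomal difference, which fixes part of this order.

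The next genes by size had smaller differences. In those named here except KIF26B the untreated polysomal value was again above both total values, but the ATO polysomal value was not always near them. CYSTM1, a small cysteine-rich membrane protein, read 11.68 untreated and 10.88 with ATO in polysomal RNA and 10.83 and 10.76 in total RNA. METTL6, a tRNA methyltransferase, read 10.66 and 9.93 in polysomal RNA and 9.51 and 9.64 in total RNA. ADAM15, a membrane metalloproteinase, read 10.38 and 9.63 in polysomal RNA and 9.63 and 9.65 in total RNA. All 3 stood at least 0.75 above their total RNA in untreated cells and at most 0.29 above it in ATO cells. BLOC1S5, a subunit of a complex for lysosome-related organelles, was at -0.76, and the readthrough transcript EEF1E1-BLOC1S5, which contains it, was at -0.61. CNPY4 was at -0.75, STOX2 at -0.71, ZC3HAV1L at -0.68 and the tetraspanin TSPAN33 at -0.67. FBXO45, a substrate receptor of a ubiquitin ligase, was at -0.73 and was also lower in total RNA, at -0.39. KIF26B, a kinesin family member, differed from these in its position. It read 9.36 and 8.66 in polysomal RNA and 9.87 and 10.19 in total RNA, so that both polysomal values were under both total values. In STOX2 the ATO polysomal value of 8.38 was under both total values, 8.79 and 8.81. ACYP2, an acylphosphatase, read 8.25 and 7.45 in polysomal RNA and 7.74 and 7.86 in total RNA. However, its dimmer second probe set read 5.10 and 5.05 in polysomal RNA.

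The remaining lower genes past 1.5-fold lay between -0.67 and -0.59 and were of varied function. CCND3, the D-type cyclin that activates CDK4 and CDK6, read 12.55 untreated and 11.90 with ATO in polysomal RNA and 11.90 and 11.69 in total RNA. ORC1, the largest subunit of the origin recognition complex, read 9.10 and 8.46 in polysomal RNA and 9.07 and 9.18 in total RNA. SMO, the membrane transducer of Hedgehog signalling, read 9.47 and 8.88 in polysomal RNA and 8.52 and 8.35 in total RNA. EXT1, a heparan sulfate polymerase, was at -0.60 with total RNA at 0.01. DPH2, an enzyme of the diphthamide modification of elongation factor 2, was at -0.65, and ALG14 of N-glycan synthesis and SPR, the last enzyme of tetrahydrobiopterin synthesis, at -0.62 each. TNIP1, an inhibitor of NF-kB signalling, TRRAP, a scaffold of histone acetyltransferases, and TMEM182 were also at -0.62. GPSM2, which orients the mitotic spindle, was at -0.64, the calcineurin regulator RCAN3 at -0.66 and STPG1 at -0.63. FANCL, the ubiquitin ligase of the Fanconi anaemia pathway, and S100A4, a calcium-binding protein, were at -0.61, the autophagy protease ATG4C at -0.60, and HINT3 and the zinc finger gene ZNF595 at -0.59. The histone genes H2BC3 (-0.67) and H2BC12 (-0.63) complete the 34 and are described with their family.

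The 10 higher genes were of mixed function. SIMC1, a protein with SUMO-interacting motifs, read 8.43 untreated and 9.16 with ATO in polysomal RNA and 9.11 and 9.16 in total RNA. CYP2J2, a cytochrome P450 that makes epoxides of arachidonic acid, read 9.12 and 9.84 in polysomal RNA and 9.30 and 9.29 in total RNA. REST, the repressor of neuronal genes in non-neuronal cells, read 11.91 and 12.55 in polysomal RNA and 11.96 and 12.11 in total RNA. REST and CYP2J2 in ATO cells were above their other 3 values, whereas SIMC1 in untreated cells stood below its other 3 values. WDR12, a factor of large ribosomal subunit assembly, read 10.62 and 11.25 in polysomal RNA and 11.26 and 11.44 in total RNA, again with the untreated polysomal value alone low. MRPL1, of the large mitochondrial ribosomal subunit, was at 0.66. Enzymes of lipid metabolism were GPAT3, an acyltransferase of glycerolipid synthesis (0.62), and ECI2, an isomerase of unsaturated fatty acid oxidation (0.59). ATP6V1E2, an isoform of a proton pump subunit, was at 0.59 with 0.35 in total RNA. NAIP, a sensor of bacterial proteins, was at 0.61, but its second probe set read 7.16 and 7.17. TSGA10, a sperm tail protein, was at 0.62 in polysomal and -0.36 in total RNA. Just under the threshold were malic enzyme ME1 and VHL, a subunit of the ubiquitin ligase of hypoxia-inducible factors (0.58 each). The mitochondrial topoisomerase TOP1MT, HLA-B and the aminoacylase ACY1 followed (0.57 each).

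**Figure D2:**
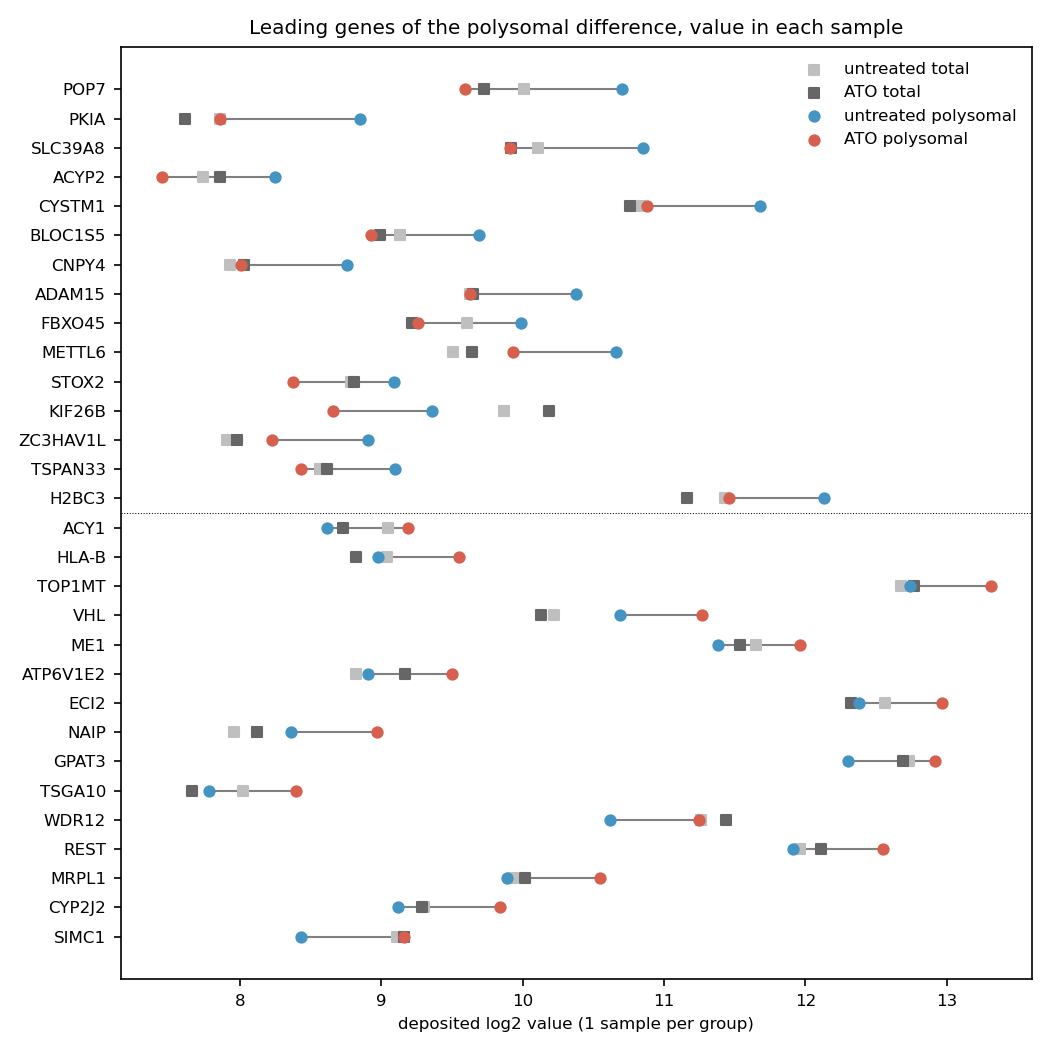
Deposited log2 value (x axis) in each of the 4 samples for the 15 genes with the lowest and the 15 with the highest polysomal difference (y axis, separated by a dotted line), with circles for polysomal and squares for total RNA and a line joining the polysomal values. In the upper block the untreated polysomal value (blue) lies to the right of both total values in most genes, as in POP7 at 10.70 against 10.01 and 9.73. Choosing the genes by the polysomal difference fixes part of this order.

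The position of the 4 samples was counted for these genes, with the reservation that choosing them by the polysomal difference fixes part of the order. Among the 34 lower genes the untreated polysomal sample was the highest of the 4 in 31 (91.2%) and the ATO polysomal sample the lowest in 17. The untreated polysomal sample was highest in 38.5% of all kept genes. Those were not chosen by this difference, so the shares are not a like comparison. Among the 10 higher genes the ATO polysomal sample was the highest in 8 and the untreated polysomal sample the lowest in 6. The total RNA difference, which shares no sample with the polysomal one, ranged from -0.39 to 0.32 in the 34 lower genes with a median of 0.01, and 18 of them were above 0 and 16 below. In the 10 higher genes it ranged from -0.36 to 0.35 with a median of 0.07, and 6 were above 0. Over all 3873 genes the polysomal and total differences correlated at r = 0.052 (Spearman's rho 0.055), a description across genes, which are not independent replicates and share the arrays' labelling and normalization.

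**Figure D3:**
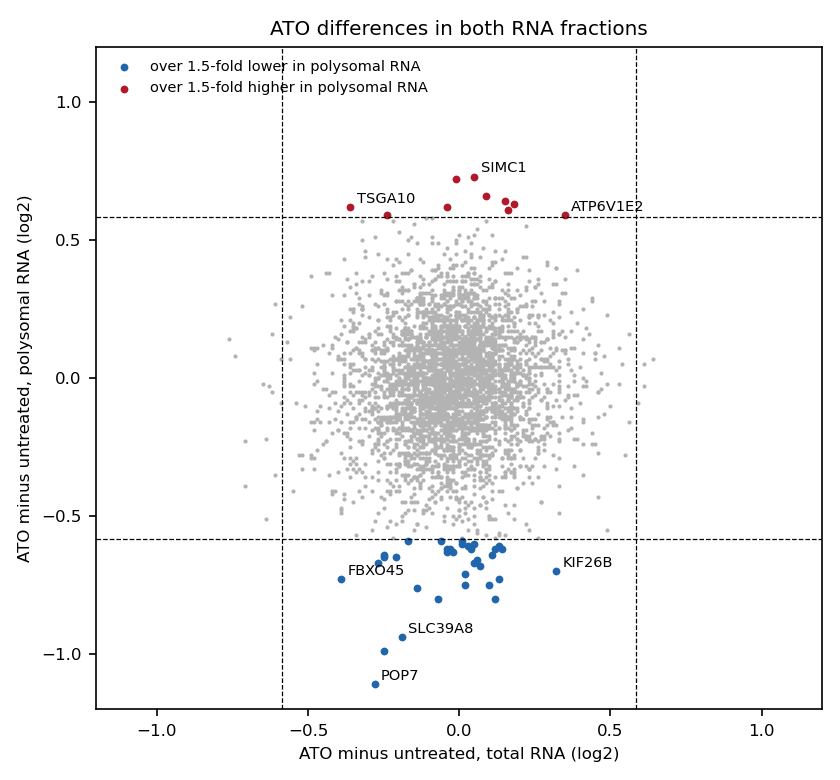
Difference between ATO and untreated cells in polysomal RNA (log2, y axis) against that in total RNA (log2, x axis) for 3873 coding genes, with dashed lines at 1.5-fold. The 34 genes lower in polysomal RNA (blue) spread from -0.39 to 0.32 on the total RNA axis and the 10 higher genes (red) from -0.36 to 0.35.

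Gene groups were described with 50 lists, of which 44 had at least 5 kept members. Their medians ranged from -0.185 to 0.17, with 21 above 0 and 22 below. The median of all kept genes was -0.02, and 45.6% of all kept genes were above 0. Among the 752 genes of these lists 11 (1.46%) passed 1.5-fold, near the 1.14% of all kept genes. Past the looser threshold 4.36% of all kept genes were higher and 7.9% lower, and the counts of each list below stand against these shares. No list was tested, and the lists were chosen with earlier results of these data known.

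**Figure D4:**
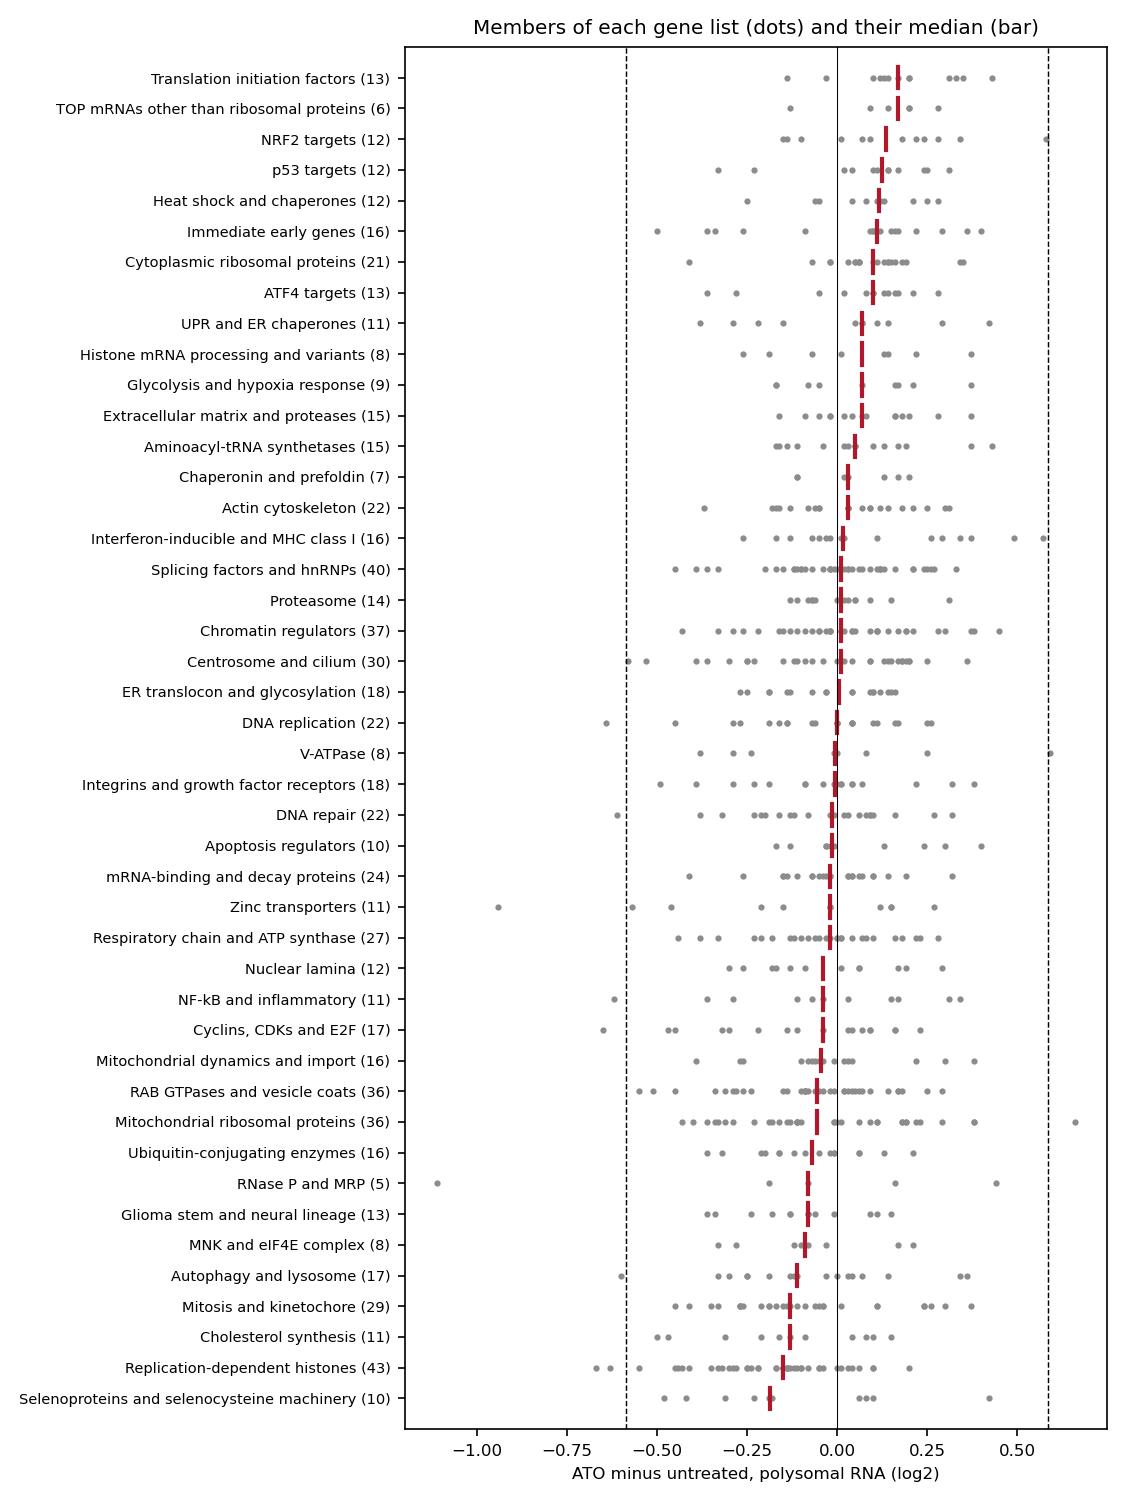
Difference between ATO and untreated polysomal RNA (log2, x axis) of each kept member (grey dots) of the 44 gene lists with at least 5 kept members (y axis, number of kept members in brackets), with the list median as a red bar and dashed lines at 1.5-fold. Medians run from 0.17 for translation initiation factors to -0.185 for the list of selenoproteins and selenocysteine machinery, and members of most lists lie on both sides of 0.

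Replication-dependent histone genes, which are expressed in S phase and whose mRNAs end in a stem-loop without a poly(A) tail, were mostly below 0 in the polysomal comparison. Of 66 listed genes 55 were measured and 43 kept. Of the kept genes 35 were below 0 and 7 above, the median was -0.15, 9 were lower past the looser threshold and none was higher past it, where 7.9% and 4.36% of all kept genes were. In total RNA the median of the same genes was -0.04, with 26 below 0 and 16 above. By class, 12 of 13 H2B genes, 6 of 9 H2A, 6 of 7 H3, 8 of 10 H4 and 3 of 4 H1 genes were below 0, and the class medians lay between -0.24 (H3) and -0.075 (H1). The widest differences were in H2B. H2BC3 read 12.13 untreated and 11.46 with ATO in polysomal RNA and 11.43 and 11.16 in total RNA. H2BC12 read 16.67 and 16.04 in polysomal RNA and 15.15 and 15.11 in total RNA. H2BC14 read 15.26 and 14.71 in polysomal RNA and 13.55 and 13.61 in total RNA. Untreated polysomal RNA was highest in all 3. H2BC9 was at -0.45, H2BC17 at -0.44, H2AC14 at -0.43 and H2BC11 at -0.41, while H2AC20 (0.20), H4C8 and H2BC6 (0.10 each) were on the other side. Histone copies are near identical and can share probes, so the members are not independent. SLBP, the protein that binds the histone stem-loop, was at 0.37 (12.50 untreated and 12.87 with ATO) with total RNA at -0.06. The polyadenylated variant genes H2AZ1 (-0.19), H2AZ2 (-0.07) and MACROH2A1 (0.14) were on either side of 0.

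The 4 H2B genes with the widest differences are shown with the octamer of their promoters, the letters ATTTGCAT bound by POU2F1 (OCT1), a known element of H2B transcription in S phase. Sequences are 48-base stretches around the match, cut from RefSeq promoter windows of GRCh38.p14 that run from 250 bases before to 50 after each gene's start, read 5′ to 3′ on the gene's strand, with the octamer in capitals.
H2BC3 (chr6:26043806-26043853, minus strand): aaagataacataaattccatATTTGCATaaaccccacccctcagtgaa
H2BC12 (chr6:27146877-27146924, minus strand): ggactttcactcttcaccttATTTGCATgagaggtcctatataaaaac
H2BC14 (chr6:27814954-27815001, plus strand): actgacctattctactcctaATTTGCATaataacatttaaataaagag
H2BC9 (chr6:26251545-26251592, plus strand): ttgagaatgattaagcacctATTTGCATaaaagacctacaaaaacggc
The octamer, searched on both strands and chosen after the values were seen, was found in the windows of 11 of the 13 kept H2B genes, against 1.77% of 35116 RefSeq windows. Among those 11 was H2BC6, which was at 0.10. A match describes the letters of the window and says nothing of transcription in these cells.

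NRF2 targets, the antioxidant and glutathione genes switched on when KEAP1 thiols are modified, were mostly above 0. Of 33 listed genes 13 were measured and 12 kept. Of these 9 were above 0 and the median was 0.135. Past the looser threshold 2 were higher, where 4.36% of all kept genes were, and none passed 1.5-fold. ME1, which makes NADPH, read 11.38 untreated and 11.96 with ATO in polysomal RNA and 11.65 and 11.54 in total RNA. SQSTM1, the autophagy receptor that also binds KEAP1, read 15.73 and 16.07 in polysomal RNA and 15.80 and 15.85 in total RNA. SLC7A11, the cystine importer, read 14.74 and 15.02 in polysomal RNA, with a total difference of 0.24. GCLM, the modifier subunit of glutathione synthesis (0.24), PRDX1 (0.22) and UGDH (0.18) followed, with TKT (0.09), PGD (0.07) and the catalytic subunit GCLC (0.01) near 0. EPHX1 (-0.15), the transcription factor gene NFE2L2 itself (-0.14) and glutathione reductase GSR (-0.10) were below 0. In total RNA 5 of the 12 were above 0, with a median of -0.03, and PGD was at -0.56.

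The antioxidant response element core, searched as TGACNNNGC on both strands of the RefSeq windows, was found in 4 of the 9 NRF2 targets with a window (EPHX1, PGD, GCLM and ME1), against 13.3% of all windows. The same core was found in 6 of 11 heat shock genes, 5 of 9 zinc transporters and 3 of 9 ATF4 targets with a window. It is shown for 3 of them, whose polysomal differences were 0.58, 0.24 and 0.07, in GRCh38.p14, 5′ to 3′ on the gene's strand, with the match in capitals.
ME1 (chr6:83431160-83431208, minus strand): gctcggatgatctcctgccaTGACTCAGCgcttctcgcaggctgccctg
GCLM (chr1:93909436-93909484, minus strand): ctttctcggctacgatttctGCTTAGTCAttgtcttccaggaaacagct
PGD (chr1:10398843-10398891, plus strand): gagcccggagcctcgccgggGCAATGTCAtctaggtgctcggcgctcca
The element lies 137, 34 and 201 bases before the start of ME1, GCLM and PGD, and in GCLM and PGD it reads on the opposite strand. EPHX1 holds the same core and was at -0.15.

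The metal handling genes that were measured had no common direction. Of 11 listed metal-response genes only 4 were measured and kept, so most of that list was not read. SLC30A1, the plasma membrane zinc exporter under control of the metal sensor MTF1, read 12.77 untreated and 13.04 with ATO in polysomal RNA and was higher in total RNA by 0.33. MTF1 itself was at -0.26 in polysomal and 0.26 in total RNA, and the other kept genes of the metal-response list, SLC39A10 (0.15) and HSPB1 (-0.05), lay closer to 0. Of 24 listed zinc transporters 15 were measured and 11 kept, and 7 of those kept were below 0. Past the looser threshold, where 7.9% of all kept genes were lower, 3 were lower, all importers of the SLC39 family. Besides SLC39A8 these were SLC39A1, which read 10.06 and 9.49 in polysomal RNA (total difference -0.34), and SLC39A4, which read 9.90 and 9.44 (total difference 0.07). SLC39A7, which releases zinc from the endoplasmic reticulum, was at -0.21, SLC39A14 at 0.15, and the exporters SLC30A9, SLC30A6, SLC30A5 and SLC30A7 were at -0.15, -0.02, -0.02 and 0.12.

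Of 27 listed heat shock and chaperone genes 12 were measured and kept, so most of the list was not read. Of these 12, 9 were above 0, with a median of 0.115 in polysomal and 0.09 in total RNA. None was past the looser threshold. HSPA4 (0.28) and HSPA4L (0.25), nucleotide exchange factors of HSP70, and the mitochondrial chaperonin HSPD1 (0.21) were highest. CACYBP (0.13), HSPE1 and DNAJB6 (0.12 each), DNAJA1 (0.11), DNAJB4 (0.08) and the stress-induced HSPA6 (0.04) were nearer to 0. HSPB1 (-0.05), HSP90AB1 (-0.06) and the heat shock factor HSF1 (-0.25) were below.

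Genes of the endoplasmic reticulum stress response split. DNAJB9, an HSP70 cofactor induced by IRE1 signalling, read 10.72 untreated and 11.14 with ATO in polysomal RNA and was at 0.02 in total RNA. PDIA4 was at 0.29, and CANX (0.14), DNAJB11 (0.11), PDIA6 and ATF6 (0.07 each) and SEC61A1 (0.05) were slightly above 0. EDEM1, which sends misfolded glycoproteins to degradation, was at -0.38, the secreted protein gene MANF at -0.29, the eIF2alpha kinase gene EIF2AK3 (PERK) at -0.22 and ERO1B at -0.15. Of 28 listed genes only 11 were measured and kept. Of these 7 were above 0, and the median was 0.07. Genes of the translocon and of N-glycosylation had 9 of 18 above 0 and ranged from -0.27 (TMED9) to 0.16 (SPCS2).

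Of 30 listed targets of ATF4, which drives amino acid synthesis in the integrated stress response, 13 were measured and kept. Of these 10 were above 0, with a median of 0.10 in polysomal and 0.15 in total RNA, and 1 member was past the looser threshold. That member was MTHFD2, a mitochondrial folate enzyme, which read 16.55 untreated and 16.19 with ATO in polysomal RNA while its total RNA differed by 0.15. Asparagine synthetase ASNS read 14.70 and 14.42, with total RNA at 0.10. These 2 stood against the rest of the amino acid genes, PSAT1 (0.13), PHGDH (0.10), PSPH (0.08) and CTH (0.17), and against SLC7A11 (0.28). VEGFA was at 0.21, STC2 at 0.16, SESN2 at 0.14, ATF3 at 0.10, GADD45A at 0.02 and VLDLR at -0.05. Of the kinases that phosphorylate eIF2alpha, EIF2AK1 was at -0.25, EIF2AK3 at -0.22 and EIF2AK2 at 0.11, and the phosphatase subunit PPP1R15B was at -0.07.

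Several lists of the translation machinery were mostly above 0 in polysomal RNA. The eIF4E complex list (6 of 8 below 0) and the mitochondrial ribosomal protein list (20 of 36 below 0), described next, went the other way. Of 13 kept initiation factors, listed without those of the eIF4E complex, 11 were above 0, with a median of 0.17 (0.03 in total RNA). Past the looser threshold, where 4.36% of all kept genes were higher, 3 were higher. EIF5A2 read 11.34 untreated and 11.77 with ATO, EIF2A read 10.22 and 10.57, and EIF1B read 14.52 and 14.85, with total RNA differences of 0.14, -0.30 and -0.02. EIF2B3 (0.31) and the EIF3 subunits EIF3I and EIF3E (0.20 each) followed, and EIF2B5 was lowest at -0.14. Of 21 cytoplasmic ribosomal protein genes 17 were above 0, with a median of 0.10 (0.01 in total RNA). RPL24 read 15.92 and 16.27 and RPL7 read 17.36 and 17.70, the 2 members higher past the looser threshold. RPS14 stood apart at 14.39 and 13.98. The other mRNAs with a terminal oligopyrimidine start, whose translation depends on mTOR, had a median of 0.17 over 6 genes. Of these 6, EIF3E and EIF3H were also counted among the initiation factors. EEF1D was at 0.28 and EEF1A1 at 0.20 (18.96 and 19.16). BTF3 was at -0.13. With quantile normalization EEF1A1, at the top of the scale, came to 0.00 and HSPB1 to -0.16.

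The list of the eIF4E complex, its MNK kinases and their regulators had more members below 0 than above, 6 of 8 kept genes. The median was -0.09 in polysomal and -0.055 in total RNA, and -0.02 over all kept genes in either. Only EIF4G1 was past the looser threshold. EIF4G1, the scaffold of the complex, read 13.08 untreated and 12.75 with ATO, EIF4E2 was at -0.28, the cap-binding protein EIF4E at -0.12, the kinase MKNK1 at -0.10, KHDRBS1 (Sam68) at -0.08 and EIF4H at -0.03. The repressor EIF4EBP1 (0.21) and the kinase MTOR (0.17) were above 0. Mitochondrial ribosomal protein genes had 20 of 36 below 0 with a median of -0.055. MRPL1 (0.66), MRPL15 and MRPL44 (0.38 each) were highest, and MRPL14 (-0.43), MRPL13 (-0.40) and MRPS14 (-0.36) lowest. Of 15 aminoacyl-tRNA synthetase genes 10 were above 0, and EPRS1 (0.43) and RARS1 (0.37), both of the cytosolic multisynthetase complex, were higher past the looser threshold, with total RNA at -0.03 and -0.29.

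Ribonuclease P and ribonuclease MRP cut tRNA and ribosomal RNA precursors. Their kept protein subunits other than POP7 were on either side of 0. POP1 read 8.32 untreated and 8.76 with ATO in polysomal RNA, and RPP14 (0.16), RPP21 (-0.08) and RPP40 (-0.19) were nearer to 0. RMRP, the RNA of ribonuclease MRP, is not translated. It read 5.09 and 6.17 in polysomal RNA, both under the filter level, and 11.49 and 10.47 in total RNA.

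The mixed list of selenoproteins, whose UGA codons are read as selenocysteine, and of the selenocysteine machinery had the lowest list median, -0.185 over 10 kept members. Of its 6 selenoprotein genes 3 were below 0 and 3 above, and of its 4 machinery genes 3 were below 0. The list median in total RNA was -0.145. Glutathione peroxidase GPX1 read 14.30 untreated and 13.82 with ATO in polysomal RNA and differed by -0.17 in total RNA. Selenocysteine lyase SCLY was at -0.42 (total -0.38), GPX3 at -0.31, and SECISBP2, which binds the selenocysteine insertion element, at -0.23. SELENOI, a phospholipid synthesis enzyme, was at 0.42, and SELENOK (0.10) and SELENON (0.06) were above 0.

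Mitosis genes had 21 of 29 below 0 and a median of -0.13 in polysomal and -0.11 in total RNA. Past the looser threshold, where 7.9% of all kept genes were lower, 4 members were lower. CDC25C, the phosphatase that starts mitosis, read 8.16 untreated and 7.71 with ATO, the cohesin protector SGO2 read 8.47 and 8.06, and CENPF read 12.09 and 11.76 with a total difference of 0.32. The kinesin KIF20A (0.37) and the checkpoint kinase TTK (0.30) were above 0 while their total RNA was at -0.21 and -0.42. Of 17 cyclin, CDK and E2F genes 9 were below 0, led by CCND3, E2F5 (-0.47, total -0.39), CDK6 (-0.45) and CDK5 (-0.32). Past the looser threshold 3 genes were lower and none higher. CCNT2 (0.23) and CDK13 (0.16) were the highest of that list. DNA replication genes had a median of 0.00 over 22 genes, and in total RNA of -0.15 with 15 below 0. ORC1 (-0.64) and DTL (-0.45) were lowest and ORC5 (0.26) and RPA2 (0.25) highest. DNA repair genes had a median of -0.015 over 22 genes, and in total RNA of -0.13 with 16 below 0. They ranged from FANCL (-0.61) and the oxidised guanine glycosylase OGG1 (-0.38) to RAD50 (0.32).

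Signalling and stress lists held members in both directions. Among 16 immediate early genes 11 were above 0 with a median of 0.11 (-0.05 in total RNA). MCL1, an antiapoptotic protein of short half-life, read 14.54 untreated and 14.94 with ATO, CCN2 was at 0.36 and DUSP4 at 0.29, while SRF read 8.96 and 8.46, IER3 was at -0.36 and NR4A2 at -0.34. MYC (0.09), JUN (0.10) and EGR1 (0.16) were near the middle of the list. In the NF-kB list TNIP1 (-0.62), CXCL1 (-0.36) and CCL20 (-0.29) were lowest. TNFAIP3 (0.34) and PTGS2 (0.31) were highest and their total RNA stood at 0.31 and 0.35, so these 2 were similar in both fractions. CXCL8 read 17.13 and 17.16. The p53 target list had 10 of 12 above 0 with a median of 0.125 (-0.035 in total RNA), from PLK2 (0.31) and CCNG1 (0.25) to RRM2B (-0.23) and ZMAT3 (-0.33), and CDKN1A was at 0.04. Of 10 kept apoptosis regulators 6 were below 0, with a median of -0.015 (-0.07 in total RNA). MCL1 was highest, followed by CASP8 (0.30) and the death receptor gene TNFRSF10B (0.24), and BNIP3L (-0.17) and BAK1 (-0.13) were lowest. Past the looser threshold 1 member was higher and none lower, where 4.36% and 7.9% of all kept genes were.

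MHC class I genes, which present peptides to T cells, were above 0 in polysomal and below 0 in total RNA. HLA-B read 8.98 untreated and 9.55 with ATO in polysomal RNA and 9.04 and 8.82 in total RNA. HLA-E (0.37), HLA-F (0.34) and HLA-C (0.29) followed, with total RNA between -0.13 and -0.03. These copies are similar in sequence and their probes can cross-hybridise. Among other interferon-inducible genes GBP3 was at 0.49 and IFI16 at 0.26, and IFI6 (-0.26) and the peptide loading gene TAPBP (-0.17) were below 0. The list as a whole had a median of 0.015 and 4 of 16 members higher past the looser threshold, where 4.36% of all kept genes were.

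Of the metabolic lists, cholesterol synthesis stood furthest below 0. Cholesterol synthesis genes had 7 of 11 below 0, with a median of -0.13 (-0.09 in total RNA). Past the looser threshold 2 were lower, where 7.9% of all kept genes were. Lowest were squalene epoxidase SQLE (9.45 untreated and 8.95 with ATO), SCAP, the escort of the sterol-sensing transcription factors (-0.47), and STARD4 (-0.31, also -0.31 in total RNA). CYP51A1 (0.15) and HMGCS1 (0.10) were above 0. Respiratory chain genes had a median of -0.02 over 27 genes, with CYC1 (-0.44), NDUFC1 (-0.38) and NDUFB4 (-0.33) lowest and ATP5PB (0.28) highest. CYC1 was also lower in total RNA, by -0.38. Glycolysis and hypoxia genes had a median of 0.07 over 9 genes, from PDK1 (-0.17) to hexokinase HK2 (0.37). In mitochondrial dynamics, MFN1 (0.38) of fusion and MFF (0.30) of fission were highest, and CHCHD2 (-0.39) was lowest.

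Lists of degradation and membrane traffic had medians between -0.11 and 0.01. Autophagy and lysosome genes had a median of -0.11 over 17 genes (0.05 in total RNA), with ATG4C, the lysosomal protease gene CTSO (-0.33), WIPI2 (-0.30) and ATG5 (-0.25) low and CTSL (0.36) and SQSTM1 (0.34) high. Ubiquitin-conjugating enzyme genes had 12 of 16 below 0, from UBE2J2 (-0.36) to UBE2H (0.21), whereas 14 proteasome genes had a median of 0.01, with PSMD14 at 0.31. Of the 8 proton pump genes, ATP6V0B (-0.38), ATP6V0E1 (-0.29) and ATP6V1B2 (-0.24) were below 0 and ATP6V1E2 and ATP6V1C1 (0.25) above. RAB and vesicle coat genes had 22 of 36 below 0. The clathrin adaptor subunits AP1S1 (10.47 untreated and 9.92 with ATO) and AP2M1 (14.33 and 13.82) were lowest, and RAB7A of late endosomes (17.68 and 17.97) was highest.

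Genes of the glioma cell surface, matrix and lineage included few wide differences. Of 13 stem and neural lineage genes 10 were below 0 with a median of -0.08. SOX4 (-0.36), SOX2 (-0.24) and FABP7 (-0.18) were lower by similar amounts in total RNA (-0.36, -0.32 and -0.17), and ID3 was at -0.34 with total RNA at 0.07. Of the integrin and receptor list, the ephrin receptor gene EPHA4 (-0.49, total -0.39) and the integrin gene ITGA4 (-0.39, total -0.20) were lowest. ITGA2 (0.38, total 0.16) and EPHA2 (0.32, total -0.19) were highest, with EGFR at 0.01. Extracellular matrix genes had 10 of 15 above 0 and a median of 0.07, with the tissue plasminogen activator gene PLAT at 0.37 and COL12A1 at 0.28. The neuronal genes MAP2 (0.22) and GAD1 (-0.13) were on either side of 0.

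In the nucleus and cytoskeleton, chromatin regulators had a median of 0.01 over 37 genes and ranged from CHD7 (-0.43, total 0.46) to the remodelling ATPase SMARCA5 (0.45, total -0.01). Splicing factor genes had a median of 0.01 over 40 genes, with SNRPC (-0.45) and the SF3B subunits SF3B6 (-0.39) and SF3B4 (-0.36) lowest and SRSF11 (0.33) highest. Among mRNA-binding and decay genes the deadenylase subunit CNOT10 (-0.41) was lowest, the exonuclease XRN1 (0.32) highest and YBX1 at 0.14. The lamin genes LMNB1 (0.29) and LMNA (0.19) were the highest of 12 nuclear lamina genes and LEMD2 (-0.30) the lowest. Of 30 centrosome and cilium genes, BBS7 of the BBSome (10.07 untreated and 9.49 with ATO) and CEP44 (-0.53) were lowest. In the actin list the formin gene DIAPH1 (-0.37) was lowest and TMOD1 (0.31) highest.

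Noncoding probe sets were counted at the same level without the restriction to coding genes. Of 4722 named probe sets at or above 7.80, 31 (0.657%) were over 1.5-fold higher and 44 (0.932%) lower. Of 1982 probe sets with no symbol at that level 38 (1.92%) were higher and 18 (0.908%) lower. Of 99 long noncoding RNA probe sets none was higher and 3 were lower, the antisense RNA PTPRG-AS1 (9.60 untreated and 8.80 with ATO) and the readthrough transcripts C1QTNF3-AMACR (9.25 and 8.44) and EEF1E1-BLOC1S5. THAP9-AS1 (0.39), LINC00467 and ZSCAN16-AS1 (0.38 each) were the highest. Of 27 microRNA loci none passed 1.5-fold, with MIR146A lowest (8.34 and 7.89) and MIR4437 and MIR6825 highest (0.37 each). These probe sets read the locus or its host transcript, so the values are not levels of mature microRNA. Of 13 small nuclear RNA probe sets, the variant U1 gene RNVU1-19 read 8.19 and 7.26 in polysomal and 9.75 and 9.79 in total RNA, while RNVU1-18 (-0.01) and RNU5D-1 (-0.03) were near 0 and RN7SK (0.23) was highest. The 10 probe sets of 5S ribosomal RNA, several with identical values, lay between -0.24 and 0.05 in polysomal RNA and had a median of -0.59 in total RNA.

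Pseudogene probe sets held most of the higher noncoding calls. Of 516 pseudogene probe sets 19 (3.68%) were over 1.5-fold higher and 2 (0.388%) lower, with a median of 0.07, and of 86 transcribed pseudogenes none was higher and 2 lower (FGF7P6 at -0.67 and MSTO2P at -0.60). Most of the higher ones were copies of abundant RNAs, and their probes can bind the parent transcript. The 10 copies of 7SK had a median of 0.56 with 4 over 1.5-fold higher, such as RN7SKP231 (9.05 untreated and 9.79 with ATO) and RN7SKP79 (10.84 and 11.49), while RN7SK itself read 16.56 and 16.79. All 9 EEF1A1 copies were above 0 with a median of 0.25, led by EEF1A1P14 (9.79 and 10.55). Of 99 ribosomal protein copies 72 were above 0 and 27 below, with a median of 0.10, the same as over the 21 ribosomal protein genes. The 17 5S copies had a median of 0.14 in polysomal and -0.53 in total RNA, with RNA5SP191 (0.78) and RNA5SP85 (0.77) highest. The 32 U6 copies included the widest difference of a pseudogene, RNU6-164P (0.85), but had a median of -0.08. In total RNA RN7SKP231 read 12.16 and 12.53 and RNU6-164P 9.28 and 9.72, so both stood lower in the polysomal than in the total samples of either state.

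The share of genes past 1.5-fold differed with the level of the gene. All 7745 coding genes were divided by mean level into 4 bands of equal size. The band from 7.80 to 11.12 had 6 higher (0.31%) and 30 lower (1.55%), and the band above it had 4 of each (0.207%). Below the filter, the band from 4.72 to 7.80 had 22 higher and 62 lower (3.2%), and the dimmest band 32 and 19. Lower genes outnumbered higher ones in the middle bands of polysomal RNA. In total RNA they also did so from 7.80 to 11.12, with 4 higher and 12 lower, but not from 4.72 to 7.80, with 37 and 37. The median level of the 34 lower and 10 higher genes was 9.73 and 9.74, against 11.12 for all kept genes. Whether the excess of lower genes belongs to the treatment or to the untreated polysomal sample was not tested, since each group has 1 sample.

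**Figure D5:**
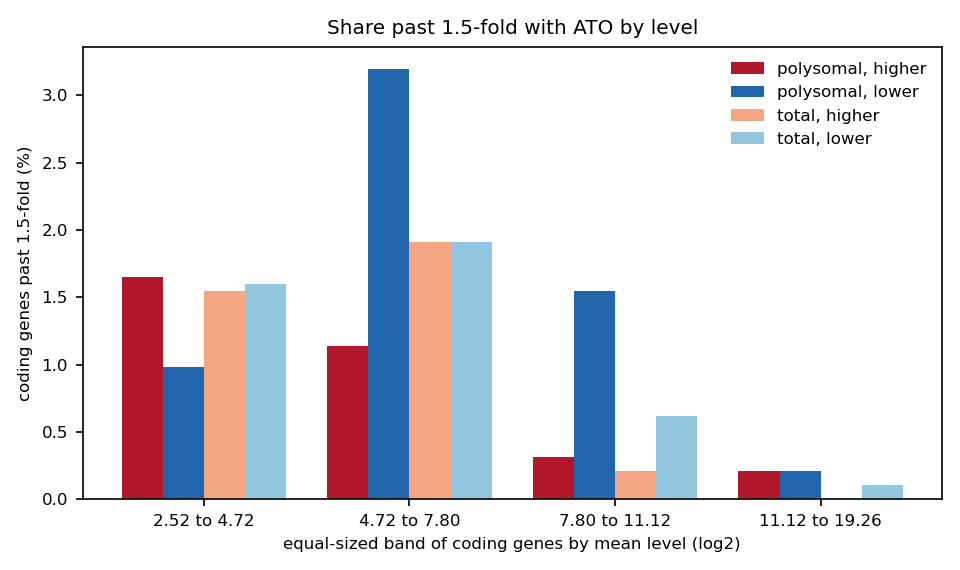
Share of coding genes past 1.5-fold with ATO (%, y axis) in 4 equal-sized bands of mean deposited log2 value (x axis), with bars for polysomal and total RNA in each direction, drawn from 0. Polysomal genes lower with ATO reach 3.2% in the band from 4.72 to 7.80 and 1.55% in the next, and the brightest band has 0.207% in either direction.

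Genes read by several probe sets gave a check within the arrays. Of 96 such kept genes, 13 had a second probe set at or above the filter level, and the polysomal differences of both differed by a median of 0.08 and by at most 0.52, with the same sign in 10 of 13. Of the 44 genes past 1.5-fold only ACYP2 and NAIP had a second probe set, and in both it was below the filter level and near 0. The median genomic span was 48.6 kb for the 34 lower genes and 63.7 kb for the 10 higher genes, against 40.9 kb for all kept genes. At the looser threshold it was 31.2 kb for lower and 44.4 kb for higher genes, so the order of lower genes and all genes turned with the threshold. By chromosome, the 34 lower genes included 10 of the 866 kept genes of chromosome 1 and 6 of the 407 of chromosome 7, and chromosome medians ranged from -0.05 to -0.01.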

How the data were processed

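Values were the deposited log2 values of the 4 array samples, given by the authors to 2 decimals and used as deposited. Per the labels' protocols, cDNA was labelled with the Affymetrix GeneChip WT kit, and the submitters' processing notes name Affymetrix Expression Console. How probe sets were summarised and normalized, how triplicates were pooled, the software version and the build: not given in the sources used here.

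Probe sets were named from the platform annotation, of which 419 carried several symbols and 48982 none and were not named. Coding genes were typed through the Entrez identifier in RefSeq (10775 probe sets matched). Noncoding classes also used symbol and chromosome (4377 matched). Each gene took the values of its brightest probe set by mean, and the filter stood at 7.80.

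Having 1 sample per group, the comparison allowed no test, so genes past 1.5-fold were counted. The text names the 15 genes per direction with the widest difference, list members past 1.5-fold, up to 5 further members per list by size, all kept members of the NRF2, metal, zinc, heat shock, ATF4, endoplasmic reticulum stress and eIF4E lists, and up to 4 probe sets per direction of each noncoding class. Other genes named were chosen after their values were seen. The comparison and the lists were chosen with earlier results of these data known. Alternatives were centring, quantile normalization, other filters, an offset, the mean over probe sets, all named genes, a loess trend and other thresholds. The counting was run on simulated data with planted folds, which checks the code and not the error of the 1.5-fold counts. Python 3.11.15, pandas 2.3.3 and statsmodels 0.14.6 were used.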

Additional observations from a re-analysis of the deposited data

Results flagged for a closer look

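TSGA10 was past 1.5-fold higher in polysomal RNA at 0.62 while its total RNA stood at -0.36, the opposite direction and past the looser threshold of 0.322. Each value is a difference of 1 sample from 1 other, and the difference between the fractions was not tested. The gene lay just above the filter, with a mean of 7.96.

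Among 1982 probe sets with no gene symbol in the table used here and a mean level of at least 7.80, 38 (1.92%) were over 1.5-fold higher and 18 (0.908%) lower in polysomal RNA, against 0.657% and 0.932% of named probe sets at that level. They carry no gene name here and enter no gene list.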

How the results depend on the processing

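No paired analysis was possible because each group has 1 sample and the labels give no replicate numbers. The counts of 10 higher and 34 lower genes became 64 and 115 with no filter, 4 and 4 with the filter at the 75th percentile of coding genes (11.12), 31 and 42 with all named genes, 0 and 1 at 2-fold, and 169 and 306 at a log2 threshold of 0.322. The last setting and centring on the median of the kept genes (15 and 29) were added after the data were seen. More genes enter without the filter and fewer at the higher one. The other counts were 10 and 31 with quantile normalization, 7 and 28 with 32 added on the linear scale, 9 and 33 with the mean over probe sets, 15 and 26 after the loess subtraction, and 8 and 42 with centred samples. All 10 higher and 26 of the 34 lower genes were shared with the loess result, and 8 and 34 with centred samples.

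Over 292 named genes, 2199 of 2202 values stayed within 0.1 of the reported ones. The exceptions were EEF1A1 (0.00) and HSPB1 (-0.16) with quantile normalization and NAIP (0.31) with the mean over its probe sets. Of 351 list medians 346 stayed within 0.1, and 13 lists with medians near 0 changed sign under some setting, among them the inflammatory list (0.17 with the higher filter). The causes were not tested. Without replicates, the spread between samples of a group is unknown.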
